A study of Mus musculus with 24 samples.

Results

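Combined treatment with PLX3397 and Anakinra was compared with vehicle in the injured brain of male mice at 5 days after traumatic brain injury (TBI). The comparison used 10 of the 24 libraries of the series, namely the 5 that the labels assign to PLX3397+Anakinra and the 5 that they assign to vehicle. Each library was bulk polyA RNA-seq of the lesional and perilesional tissue of 1 mouse. Values are given as TPM, by name a transcript abundance scaled to gene length and to the library's total. The methods of the study add that the software calls this unit CPM, a name for values without length scaling. Levels of different genes are therefore compared with that reserve. The other libraries were 5 of mice given PLX3397 alone, 5 of mice given Anakinra alone and 4 of sham-operated mice.

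PLX3397 is an oral inhibitor of the kinase CSF1R that also acts on KIT and FLT3. CSF1R is the receptor through which the cytokines CSF1 and IL-34 keep microglia and many other macrophages alive. Anakinra is a recombinant form of the natural antagonist of the interleukin-1 receptor IL1R1, which it occupies without starting the MyD88 signal that interleukin-1 alpha and beta start. After a contusion, resident microglia, macrophages of the brain borders and monocytes from the blood take up debris, present antigen and release cytokines, while fibroblasts and astrocytes close the wound.

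TBI was made by controlled cortical impact, in which a piston strikes the exposed cortex. The PLX3397+Anakinra mice ate chow with 290 mg/kg PLX3397 from 90 min after the impact and received Anakinra at 100 mg/kg under the skin at 5 min, 24 h, 48 h and 72 h. Vehicle mice had the same injury, control chow and saline, and sham mice had their skin cut and sutured, with neither a bone window nor an impact, so a comparison with sham also includes the opening of the skull. The labels give no transgene or deletion for any group, an age of 12 to 16 weeks and the strain C57BL6N, while the methods of the study name C57BL/6JRj and a narrower age range. The labelled tissue is cortex, but the methods describe a brain piece that also held striatum, dorsal hippocampus and thalamus. Striatum was present in the data too: Ppp1r1b, a marker of striatal projection neurons, stood at 571 to 773 TPM in vehicle and 668 to 916 TPM in PLX3397+Anakinra mice, beside Tbr1, a marker of cortical neurons, at 34.7 to 43.6 and 44.2 to 51.3 TPM. The numbers of the vehicle mice (J01B, J17B, J18B, J19B and J20B) carry a letter that no other group has, so a batch behind that letter, if there was one, cannot be told apart from the vehicle group.

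The 10 libraries listed 22524 to 23249 genes above 0, and mice of a group correlated at 0.988 to 0.995 across genes in vehicle and at 0.993 to 0.995 in PLX3397+Anakinra (Pearson, log2 scale). The depth of the libraries is unknown because TPM keeps no read counts. The vehicle mice J17B and J20B stood apart from the other 3 in genes of collagen and scar matrix, and J17B was also the vehicle mouse with the lowest score in most myeloid lists, so results that rest on these mice are given with and without them. In whole tissue, fewer cells of a type and less RNA per cell cannot be told apart.

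Of 17267 genes whose TPM averaged 0.5 or more across the 24 libraries, 3018 (17.5%) differed between PLX3397+Anakinra and vehicle at an adjusted p below 0.05 in limma, fitted on log2(TPM + 1). Among them, 1658 (9.60%) were lower and 1360 (7.88%) were higher in the treated mice. The decreases were the larger ones. The median log2 difference was -0.47 over the lower genes and 0.22 over the higher genes, against 0.01 over all genes tested. A change beyond 2-fold was reached by 304 lower and 25 higher genes, and beyond 4-fold by 13 lower genes and 1 higher gene. On the log2(TPM + 1) scale the change of weakly expressed genes is understated. The values of the 5 treated mice lay wholly below those of the 5 vehicle mice in 1143 genes (6.62%) and wholly above them in 706 genes (4.09%).

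The called lower genes made up 10.1 to 13.3% of all TPM in vehicle mice, 7.44 to 8.36% in PLX3397+Anakinra mice and 5.37 to 5.56% in sham mice. The higher genes made up 17.1 to 18.7% in vehicle, 20.4 to 21.5% in PLX3397+Anakinra and 23.6 to 24.6% in sham mice. These genes were chosen by this contrast, so the shares describe them, and the treated mice lay between vehicle and sham in both directions. With the criterion of the study (unadjusted p below 0.05, ratio of mean TPM above 2, difference of mean TPM above 4), 285 genes (1.65%) passed, 268 (1.55%) of them lower and 17 (0.0985%) higher. They are called differentially expressed genes (DEGs) from here on. Their log2 differences are plotted against expression level.

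**Figure D1:**
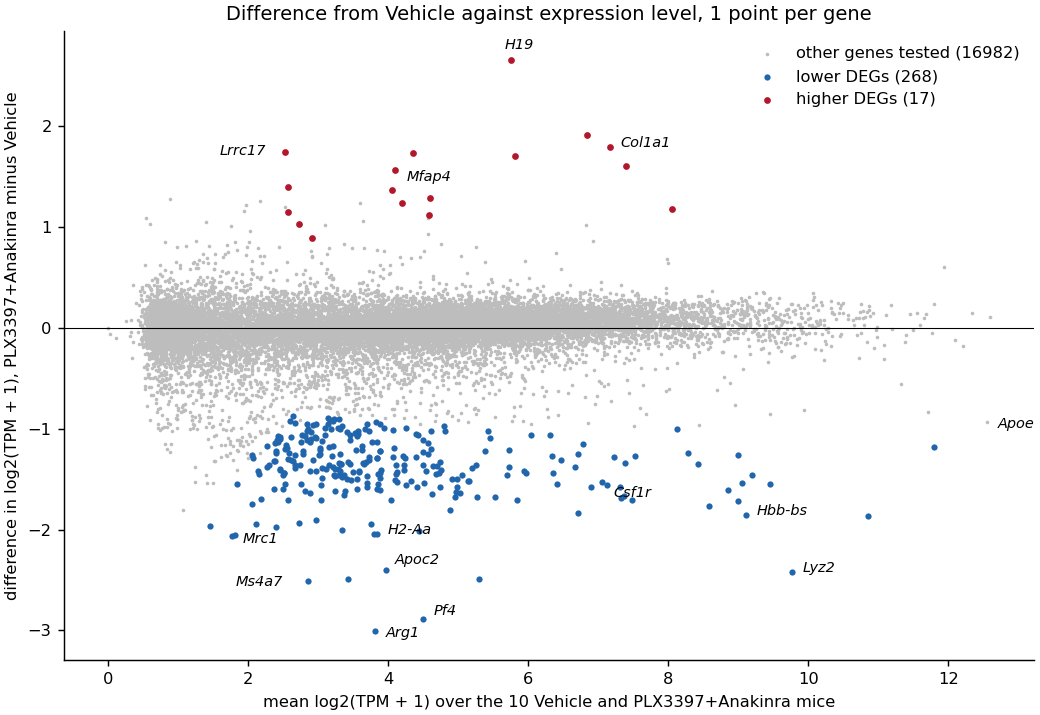
Each point is 1 of 17267 genes. The horizontal axis is the mean log2(TPM + 1) over the 10 mice and the vertical axis the difference in log2(TPM + 1) between PLX3397+Anakinra and vehicle, so points below 0 are lower with treatment. The 268 lower DEGs (blue) reach down to -3.01 for Arg1, while the 17 higher DEGs (red) reach 2.66 for H19.

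Csf1r itself, the receptor that PLX3397 blocks, had one of the smallest adjusted p values of the comparison. It stood at 211, 194, 239.9, 241 and 247 TPM in the vehicle mice J01B, J17B, J18B, J19B and J20B, and at 83.8, 78.1, 71.0, 82.1 and 72.6 TPM in the treated mice J03, J04, J09, J10 and J17 (values of each group follow this order of mice throughout). The groups did not come near each other, and the log2 difference was -1.53 ± 0.09 (SE; adjusted p = 4.3e-11, limma). The other kinases that PLX3397 reaches gave no call: Kit had 20.1 to 21.7 TPM in vehicle and 19.7 to 23.3 TPM in treated mice (adjusted p = 0.97), and Flt3 had 4.49 to 4.95 and 4.44 to 5.95 TPM (adjusted p = 0.43).

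The 2 ligands of CSF1R moved in opposite directions. Csf1, which astrocytes and neurons release after injury, fell from 57.1 ± 8.91 to 41.1 ± 3.55 TPM (SD, n = 5; log2 difference -0.45 ± 0.09, adjusted p = 0.00078). Il34, the ligand made by neurons, rose from 50.9 ± 4.26 to 58.8 ± 1.496 TPM (log2 difference 0.21 ± 0.05, adjusted p = 0.0062). Values of the groups overlapped for both genes.

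On the interleukin-1 side, the message of the receptor was not among the calls. Il1r1 had 8.08, 6.61, 10.2, 11.4 and 8.10 TPM in vehicle and 9.85, 8.72, 11.9, 8.42 and 9.16 TPM in treated mice (log2 difference 0.12 ± 0.13, adjusted p = 0.59). Of the cytokines, Il1a fell from 1.58 ± 0.326 to 0.674 ± 0.140 TPM without overlap (adjusted p = 6.7e-05), whereas Il1b stayed under 1 TPM in all 10 mice and gave no call (adjusted p = 0.91). Il1rn encodes the endogenous antagonist of which Anakinra is the recombinant form. It went from 3.08, 0.624, 3.81, 4.67 and 1.58 to 1.71, 0.455, 0.732, 1.02 and 1.37 TPM with overlap (adjusted p = 0.026), a call that was lost when any of 5 single mice was left out (highest adjusted p = 0.099). Without the vehicle mice J17B and J20B together, the log2 difference of Il1rn was -1.26 (adjusted p = 1.5e-05). Downstream of the receptor, the adaptor Myd88 fell by 0.39 on the log2 scale (adjusted p = 0.016, 0.065 without J18B) and the kinase Irak4 by 0.56 (adjusted p = 0.00013). In the list of 15 drug targets, ligands and signalling partners, 6 genes were lower and 1 was higher.

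The largest decrease of the comparison was that of Arg1 (chr10:24915207-24927470), arginase, which converts arginine to ornithine in wound macrophages. Vehicle mice held 78.8, 20.4, 40.6, 42.4 and 31.6 TPM and treated mice 3.01, 4.60, 3.26, 5.30 and 3.98 TPM, a ratio of means of 10.6 (log2 difference -3.01 ± 0.27, adjusted p = 8.5e-09). J01B had the highest and J17B the lowest vehicle value, and J17B was still above the highest treated mouse.

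Pf4 (chr5:90772435-90773383), a chemokine of platelets and macrophages, stood at 73.0, 37.7, 68.9, 87.9 and 47.8 TPM in vehicle and 11.6, 5.45, 7.48, 6.43 and 6.83 TPM in treated mice (log2 difference -2.88 ± 0.22, adjusted p = 8.7e-10). Wfdc17 (chr11:83704056-83706269), a secreted protein of activated macrophages, fell from 105, 69.5, 92.2, 124 and 79.0 to 16.6, 18.03, 14.9, 15.6 and 12.8 TPM (log2 difference -2.49 ± 0.15, adjusted p = 4.3e-11). Ms4a7 (chr19:11321039-11336146), a membrane protein of monocyte-derived and border macrophages, fell from 16.8, 11.7, 20.1, 18.1 and 15.4 to 1.94, 3.36, 2.08, 0.988 and 2.17 TPM (adjusted p = 1.8e-09). In all of these the groups were apart, which the rule that named them required, so it adds no support. Each kept its call when any 1 of the 10 mice was left out. For genes picked from these mice for their large differences, this adds no support either.

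Lyz2 (chr10:117277541-117282272) is the lysozyme of macrophages and granulocytes. It fell from 2360.3, 1248, 2402, 2494 and 1857 to 430.3, 369.6, 426, 336 and 327 TPM (ratio of means 5.49, adjusted p = 8.5e-10), against 13.1 to 21.8 TPM in sham mice. Its level in treated mice thus remained far above sham (adjusted p = 2.2e-14). Counted in TPM rather than in folds, the largest decreases were those of Apoe and Ctsd. Apoe, the lipid carrier of astrocytes and phagocytes, fell from 8335 ± 989 to 4343 ± 486 TPM. Ctsd, the main aspartic protease of the lysosome, fell from 5419.8 ± 739 to 2381 ± 286 TPM.

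The windows upstream of these genes were read for the letters that bind PU.1 (encoded by Spi1), the ETS factor that myeloid cells need, because Spi1 itself was lower (values with the transcription factors). Shown are the 250 bases before the start (RefSeq, GRCm38.p6, plus strand, with each gene on that strand) of the 2 strongest decreases that hold GAGGAA on either strand and of the 2 strongest increases with a window, for comparison. Capitals mark the match, here TTCCTC, the reverse complement of GAGGAA.
Pf4, chr5:90772185-90772434: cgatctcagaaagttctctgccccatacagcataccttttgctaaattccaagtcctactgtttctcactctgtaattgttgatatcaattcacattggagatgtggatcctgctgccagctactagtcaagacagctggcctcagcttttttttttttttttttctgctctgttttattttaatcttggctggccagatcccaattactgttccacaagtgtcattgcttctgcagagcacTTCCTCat
Wfdc17, chr11:83703806-83704055: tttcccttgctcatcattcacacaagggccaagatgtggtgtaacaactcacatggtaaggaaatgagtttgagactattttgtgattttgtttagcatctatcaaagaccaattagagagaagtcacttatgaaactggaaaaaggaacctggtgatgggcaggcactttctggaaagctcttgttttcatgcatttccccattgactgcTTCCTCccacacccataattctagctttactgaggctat
Lrrc17, chr5:21543277-21543526: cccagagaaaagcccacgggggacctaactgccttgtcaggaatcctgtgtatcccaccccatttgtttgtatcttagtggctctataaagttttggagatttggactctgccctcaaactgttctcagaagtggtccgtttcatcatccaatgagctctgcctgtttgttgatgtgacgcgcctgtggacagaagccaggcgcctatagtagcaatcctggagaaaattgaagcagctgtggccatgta
Postn, chr3:54359017-54359266: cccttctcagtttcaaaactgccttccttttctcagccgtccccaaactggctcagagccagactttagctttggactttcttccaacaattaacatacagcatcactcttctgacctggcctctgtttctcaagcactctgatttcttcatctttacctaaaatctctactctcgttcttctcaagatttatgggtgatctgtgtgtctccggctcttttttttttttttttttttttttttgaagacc

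The windows of Pf4 and Wfdc17, which were picked because they hold a match, held 1 each, and those of Lrrc17 and Postn, which were not picked so, held none. Among the other genes with the largest differences, F13a1 and Mrc1 held a match as well, while the lower genes Ms4a7, Lyz2, Apoc2, Ms4a4a and H2-Aa held none, and the higher gene Crabp1 held 1. A match occurred in 23.1% of all 27025 windows of the genome and in 22.6% of the windows of genes tested. It occurred in 81 of 205 windows of lower DEGs (39.5%) and in 1 of 9 windows of higher DEGs (11.1%), and over all called genes in 27.8% of the lower and 20.5% of the higher ones. The interferon response element, a pair of GAAA with any 2 bases between them, which interferon regulatory factors bind, occurred in 3.05% of all windows, in 2.62% of those of genes tested, in 5.37% of those of lower DEGs and in 12 of 24 windows of the interferon-stimulated genes listed. TGANTCA, bound by AP-1, occurred in 6.85% of all windows, in 4.46% of those of genes tested, in 7.32% of those of lower DEGs and in 7 of 24 of those of the interferon-stimulated genes. Both strands were searched, and GAGGAA can overlap the interferon response element. A match is a description of the letters and not a binding site. Many lower DEGs are myeloid genes, and whether the share in their windows relates to the lower Spi1 was not tested.

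Genes of resting microglia were lower almost without exception. Of 18 markers of homeostatic microglia, 16 were lower, none was higher, and the median log2 difference was -1.36. P2ry12, the purine receptor with which microglial processes find damage, fell from 43.3, 57.6, 58.8, 53.2 and 61.1 to 20.02, 13.8, 11.4, 18.8 and 19.5 TPM (log2 difference -1.68 ± 0.14, adjusted p = 3e-09). Tmem119, a membrane protein used to mark microglia, fell from 60.5, 51.2, 64.4, 75.7 and 64.4 to 31.7, 25.9, 25.9, 25.2 and 23.4 TPM (adjusted p = 5.7e-10). The groups were apart for each, and so they were for Cx3cr1, the receptor for neuronal fractalkine, which fell from between 114 and 152 to between 38.3 and 55.0 TPM (adjusted p = 1.2e-10). Other members with large decreases were Fcrls (-1.58 on the log2 scale), Crybb1 (-1.60), Siglech (-1.42) and P2ry13 (-1.41). Sall1, a transcription factor of microglia among brain macrophages, fell less, from between 23.0 and 29.1 to between 14.4 and 20.1 TPM (-0.63, adjusted p = 1.7e-06). The 2 members without a call were Cst3 (5057 ± 353 and 4463 ± 236 TPM, adjusted p = 0.076) and Bhlhe41 (35.0 ± 2.72 and 31.5 ± 1.55 TPM, adjusted p = 0.12), both also expressed outside microglia.

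Selplg, Cyth4 and Itgam gave some of the smallest p values. Cyth4, an exchange factor for ARF proteins of leukocytes, had 55.3, 43.7, 57.8, 60.4 and 54.4 TPM in vehicle and 19.7, 19.9, 18.2, 19.1 and 18.1 TPM in treated mice (log2 difference -1.46 ± 0.08, adjusted p = 4.3e-11). Itgam, which encodes CD11b, had 62.3 to 91.9 against 20.4 to 29.2 TPM (adjusted p = 5.6e-11), and Selplg, a ligand of selectins, had 54.8 to 63.7 against 19.8 to 25.3 TPM (adjusted p = 1e-10). Hpgds, which makes prostaglandin D2, fell from between 19.2 and 28.5 to between 6.4 and 8.18 TPM.

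**Figure D2:**
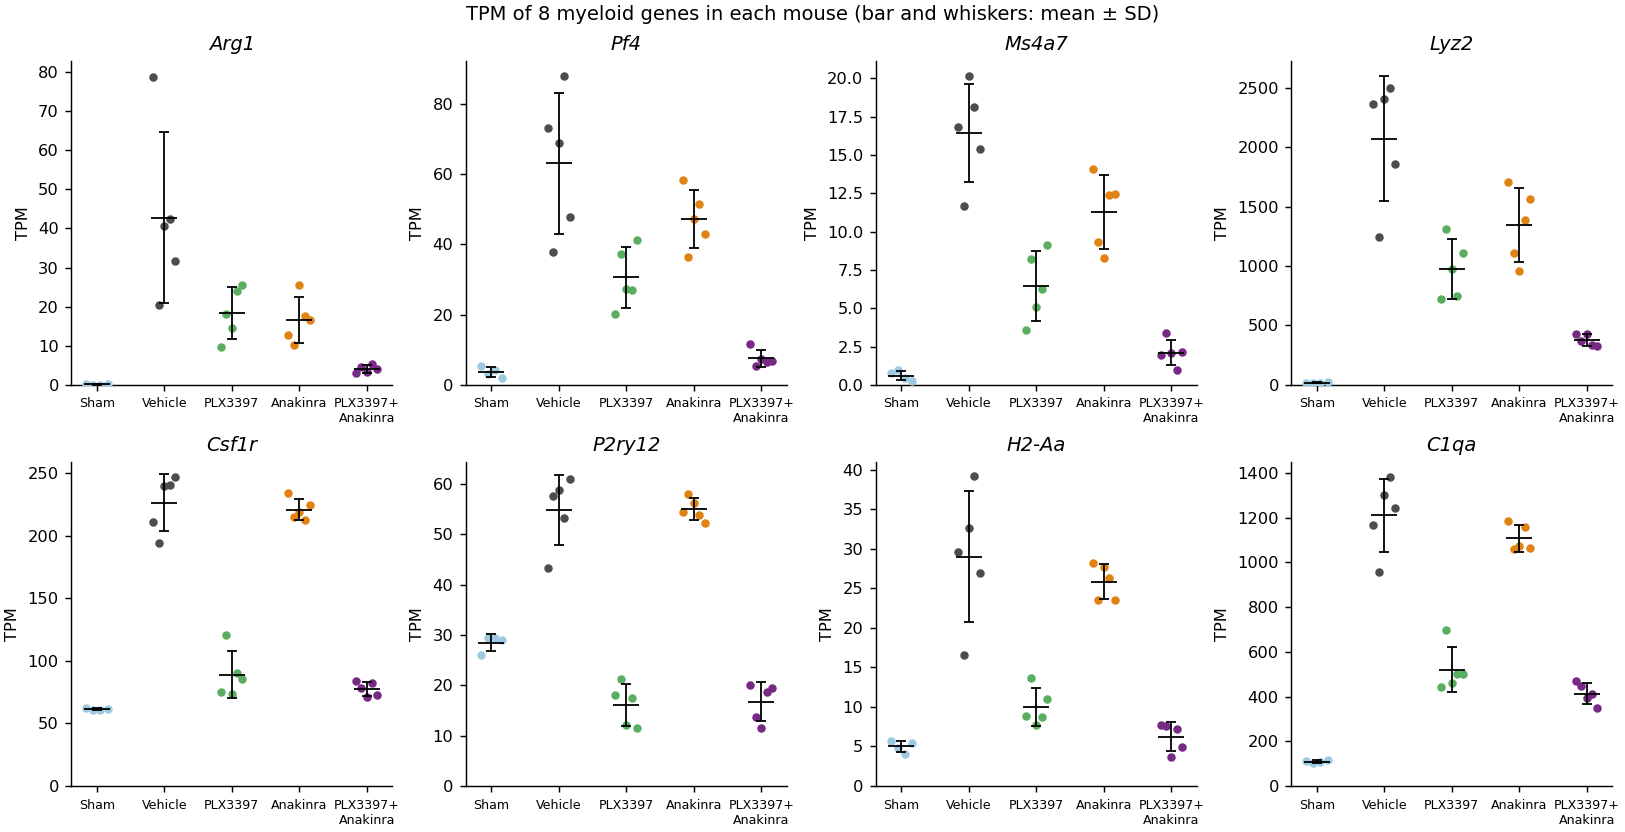
TPM of 8 myeloid genes in each mouse of the 5 groups (points), with the mean and SD of each group as a bar and whiskers. In every panel the 5 PLX3397+Anakinra mice lie below the 5 vehicle mice, and for P2ry12 they also lie below the sham mice.

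All 22 tested genes of activated phagocytes were lower, with a median log2 difference of -1.29. Spp1, the secreted phosphoprotein osteopontin, fell from 4168, 1962, 4473, 5046 and 3037 to 1318, 1129, 802, 844 and 850.1 TPM (log2 difference -1.87 ± 0.20, adjusted p = 1.7e-07). J17B again had the lowest vehicle value and still lay above every treated mouse. Gpnmb, a glycoprotein of lipid-laden phagocytes, fell from between 196 and 332 to between 66.6 and 109 TPM (adjusted p = 2.7e-07). Trem2 and Tyrobp, the lipid receptor and its signalling partner, fell from between 208 and 299 to between 84.9 and 121 and from between 407 and 660.4 to between 191 and 243 TPM (adjusted p = 7.8e-09 and 1.3e-08). Clec7a, a receptor for glucans that activated microglia carry, fell by 1.57 on the log2 scale, and Aif1, which encodes IBA1, by 1.68. The smallest decreases in the list were those of Axl (-0.22, adjusted p = 0.0037) and Fabp5 (-0.41, adjusted p = 0.0068), whose values overlapped between the groups and which astrocytes also express.

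The genes listed for border macrophages, which line vessels and meninges, had the largest median decrease of the macrophage lists. Of 15 tested genes 14 were lower (median -1.71), and 3 of the 18 listed genes were under the filter. The score of this list (defined with the collagens) averaged 0.78 in vehicle and -1.4 in sham mice, so the list was itself higher after injury. Whether the decrease lay in resident border macrophages or in other macrophages of the injured tissue was not tested. Besides Pf4 and Ms4a7, Mrc1, the mannose receptor, fell from 5.88, 4.48, 6.74, 7.60 and 5.41 to 1.12, 0.651, 0.388, 0.564 and 0.674 TPM (log2 difference -2.06 ± 0.14, adjusted p = 1.3e-10). F13a1, a transglutaminase of clotting that macrophages carry, fell from 30.8, 14.98, 30.4, 31.6 and 19.7 to 3.93, 2.64, 4.06, 3.62 and 3.61 TPM (adjusted p = 2.5e-10). Cbr2, a carbonyl reductase, fell from between 5.01 and 8.98 to between 0.839 and 1.81 TPM (adjusted p = 9.8e-10), and the scavenger receptor Stab1 from between 65.1 and 130.2 to between 26.5 and 34.5 TPM (adjusted p = 9.2e-09). Folr2, Siglec1 and Cd163 fell as well (-1.71, -1.70 and -0.91). Lyve1, a hyaluronan receptor of border macrophages and lymphatic vessels, was near the detection limit in every mouse (0.211 to 0.972 and 0.0474 to 0.633 TPM) and gave no call (adjusted p = 0.35). Cd5l, an apoptosis inhibitor secreted by macrophages, fell from 135, 64.2, 118, 169.8 and 108 to 67.0, 87.3, 46.0, 40.5 and 41.0 TPM with overlap (adjusted p = 0.0016).

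Markers of cells from the blood were mixed. Of 12 tested genes of monocytes and neutrophils, 6 were lower and none was higher (median -0.48), and 8 of 20 were under the filter. Ccr2, the receptor that brings monocytes out of the marrow, fell from 3.02, 1.36, 2.16, 2.34 and 2.25 to 0.685, 0.678, 0.242, 0.690 and 0.686 TPM (adjusted p = 6.7e-06). Chil3, a chitinase-like protein of monocytes and alternatively activated macrophages, fell from between 1.76 and 3.72 to between 0.642 and 1.40 TPM (adjusted p = 0.00042), and Mmp8, a collagenase, from between 3.09 and 4.15 to between 0.409 and 0.957 TPM (adjusted p = 2.4e-10). The alarmins of neutrophils did not follow: S100a8 had 11.2, 2.76, 21.6, 12.3 and 9.64 TPM in vehicle and 13.6, 6.54, 16.8, 7.99 and 8.78 TPM in treated mice (log2 difference 0.04 ± 0.40, adjusted p = 0.96), and S100a9 0.774 to 11.3 and 3.18 to 7.34 TPM (adjusted p = 0.79). Ly6c2, the surface antigen of inflammatory monocytes, was low and variable at 0.517 to 2.39 and 0.307 to 2.12 TPM (adjusted p = 0.59). Of 20 lymphocyte genes only 4 passed the filter on low values, with Cd3e, Cd8a and Gzmb among those under it. Cd79b, a subunit of the B cell receptor that microglia also express, fell by 0.68 (adjusted p = 0.00047), and Ccl5 went from between 3.86 and 7.35 to between 2.42 and 5.54 TPM with no call (adjusted p = 0.33).

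Most complement genes were lower, 14 of 19 (median -0.76). The chains of C1q, which start the classical pathway and which microglia make, fell together: C1qa from between 958 and 1385 to between 347 and 468 TPM (log2 difference -1.55 ± 0.10, adjusted p = 1.3e-10), and C1qb and C1qc fell by 1.46 and 1.54. The receptors C3ar1 and C5ar1 fell by 1.42 and 1.31. C3, the central component, fell from 13.2, 8.39, 14.8, 12.1 and 19.1 to 7.45, 5.07, 5.51, 7.36 and 5.92 TPM (adjusted p = 0.00042). C4b, made by astrocytes and oligodendrocytes as well, fell by 0.33 with overlap (adjusted p = 0.0073). The proteases C1ra and C1s1 and the inhibitor Serping1 gave no call (log2 differences 0.27, 0.25 and -0.10; adjusted p = 0.11, 0.35 and 0.56).

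Receptors for antibody and the kinases behind them fell together. All 19 genes of Fc receptors and ITAM signalling were lower and all 19 were DEGs without overlap between the groups, with log2 differences from -1.80 to -0.999. The inhibitory receptor Fcgr2b fell from 56.3, 35.8, 63.3, 62.5 and 58.1 to 17.01, 19.9, 12.53, 14.5 and 11.4 TPM (adjusted p = 1.5e-09). Fcer1g, the common gamma chain, fell from between 250.2 and 379 to between 83 and 111 TPM (adjusted p = 2.9e-10), and the kinase Syk from between 6.14 and 10.7 to between 2.50 and 3.31 TPM (adjusted p = 1.1e-08). The smallest decrease was that of the adaptor Hcst (-0.999, adjusted p = 0.00032).

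In antigen presentation, the median decrease was larger in the class II than in the class I pathway. H2-Aa, a chain of the class II molecule, fell from 29.6, 16.6, 32.7, 39.2 and 26.9 to 7.74, 7.55, 3.60, 7.20 and 4.96 TPM (log2 difference -2.05 ± 0.18, adjusted p = 7.8e-09). H2-Ab1, H2-Eb1 and the invariant chain Cd74 fell by 2.04, 2.00 and 2.02. Ctss, the protease that cuts the invariant chain, fell from between 665 and 888 to between 233 and 310.5 TPM (adjusted p = 1.3e-10). In all, 11 of 15 class II genes were lower (median -1.03). Ciita, the master regulator of the pathway, had only 0.702 to 1.04 and 0.476 to 0.782 TPM and no call (adjusted p = 0.13). Of 15 class I genes 12 were lower (median -0.41), none of them a DEG. H2-K1 fell by 0.76, H2-D1 by 0.86 and B2m, the shared light chain, by 0.86. Psmb10, a subunit of the immunoproteasome, had 54.6 to 65.1 and 50.1 to 63.5 TPM (adjusted p = 0.75).

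Innate sensors were lower as well. All 14 tested genes of the Toll-like receptor list were lower (median -1.35). Tlr2, a sensor of lipoproteins, fell from 19.4, 18.2, 24.7, 21.97 and 21.3 to 7.44, 8.30, 4.65, 7.14 and 5.83 TPM (adjusted p = 2e-08), and Tlr13, a sensor of ribosomal RNA, fell by 1.62. The weakest was Tlr3, a sensor of double-stranded RNA that astrocytes also express (-0.31, adjusted p = 0.027), and its call was lost without J17B and J20B (adjusted p = 0.082) and without any of 5 single mice of both groups (at most 0.095). Of 8 genes of the NADPH oxidase, which makes superoxide, 7 were lower. Cybb, the catalytic subunit of phagocytes, fell from 17.5, 11.1, 14.7, 14.2 and 13.7 to 3.47, 3.95, 2.69, 2.61 and 2.63 TPM (log2 difference -1.91 ± 0.13, adjusted p = 2.4e-10), while Nox4, the isoform of vessels and fibroblasts, had 0.461 to 0.992 and 0.475 to 1.02 TPM (adjusted p = 0.88). Of 11 inflammasome genes 10 were lower, among them the sensor Nlrp3 (-1.07), the adaptor Pycard (-1.44) and the protease Casp1 (-1.02). Il18, a substrate of that protease, was the exception at 28.7 ± 2.31 and 27.4 ± 2.03 TPM (adjusted p = 0.56).

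**Figure D3:**
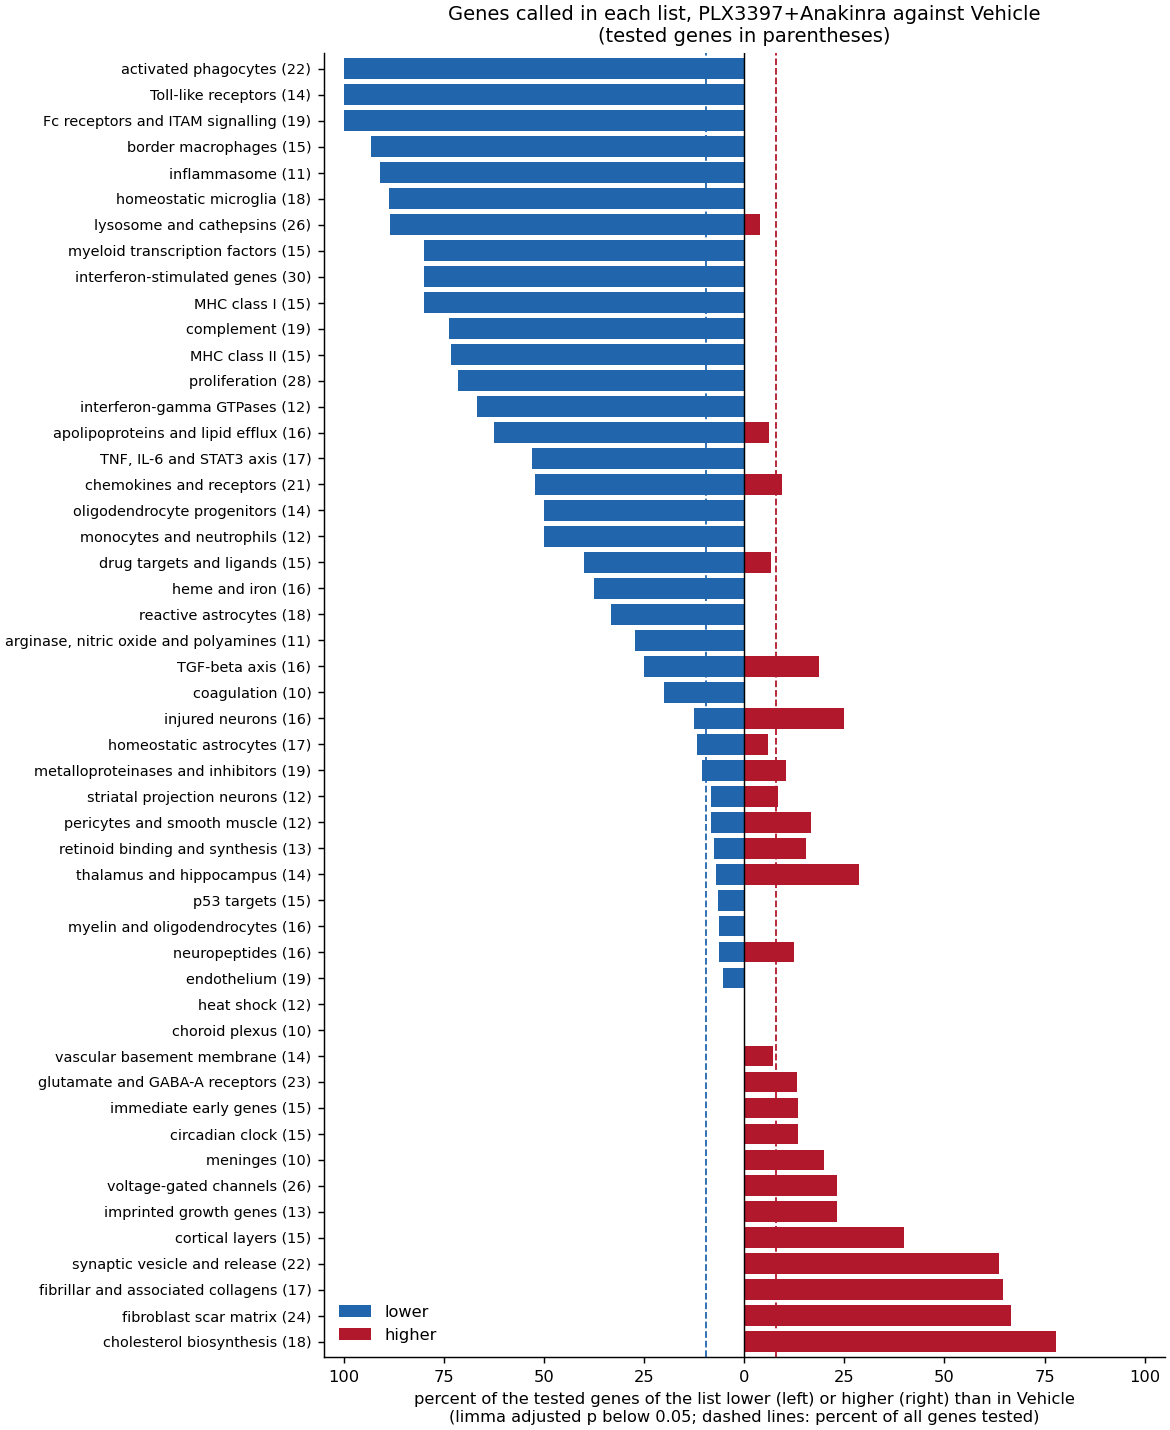
Each bar pair is 1 list with at least 10 tested genes (number in parentheses). Bars show the percent of these genes that were lower (blue, to the left) or higher (red, to the right) than in vehicle at an adjusted p below 0.05, and dashed lines mark the same percent over all genes tested (9.60 and 7.88). Myeloid and immune lists fill the top, and cholesterol, scar matrix, collagen and synaptic lists the bottom.

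Interferon-stimulated genes were lower by smaller amounts. Of 30 tested genes 24 were lower and none was higher (median -0.58). Ifi27l2a, an interferon-induced membrane protein, fell from 43.3, 45.3, 33.6, 36.1 and 45.3 to 16.8, 22.6, 10.6, 15.8 and 12.0 TPM (log2 difference -1.37 ± 0.21, adjusted p = 3.1e-05). Oas1a, which senses double-stranded RNA, fell from between 9.75 and 15.3 to between 4.37 and 7.58 TPM (adjusted p = 6.8e-05). Isg15, the ubiquitin-like modifier, fell by 0.84 with overlap (adjusted p = 0.0045). Ifit3 missed the threshold (-0.42, adjusted p = 0.076), and Ifitm3 had 182 to 286 and 176 to 272 TPM (adjusted p = 0.77). Of 12 GTPases induced by interferon gamma 8 were lower, a count that fell to 3 without the treated mouse J09. Igtp was one of them (-0.35, adjusted p = 0.019, at most 0.066 with 1 mouse left out).

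Chemokines and their receptors had 11 lower and 2 higher genes of 21 tested, against 9.60% and 7.88% of all genes tested. Of the ligands, Ccl12 fell by 1.06, Ccl3 by 0.95, Ccl9 by 1.42 and Ccl2 by 0.83 (adjusted p = 0.00024, 0.00042, 8.3e-08 and 0.0014). With a pseudocount of 0.1 the calls of Ccl12 and Ccl2 were lost (adjusted p = 0.084 and 0.063). Cxcl10, a ligand counted among the interferon-stimulated genes, fell by 0.53 (adjusted p = 0.024), a call lost with some single mice left out (highest adjusted p = 0.081). The higher genes were 2 chemokines of resident cells. Cxcl12, the retention signal of stroma and vessels, rose from 29.9, 27.3, 33.4, 33.9 and 26.4 to 41.4, 36.6, 34.5, 39.6 and 41.1 TPM (adjusted p = 0.00051), and Cx3cl1, the fractalkine of neurons, rose by 0.29 (adjusted p = 0.0094).

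Of the cytokine genes, Tnf was low and fell from between 0.409 and 1.97 to between 0.310 and 0.867 TPM with overlap (adjusted p = 0.022, at most 0.086 with 1 mouse left out), and Osm, oncostatin M, fell from between 0.993 and 2.45 to between 0.432 and 0.778 TPM (adjusted p = 0.00012). Stat3, the transcription factor behind several of these receptors, had 61.3 to 81.4 and 59.8 to 69.7 TPM (adjusted p = 0.069, but 0.0035 without J17B and J20B). In the TGF-beta axis, Tgfb1 fell from 34.8, 26.7, 39.9, 37.1 and 34.1 to 16.7, 15.3, 15.2, 13.7 and 14.04 TPM (adjusted p = 2.7e-08), and its receptors Tgfbr1 and Tgfbr2 fell by 0.92 and 0.80 (adjusted p = 2.3e-10 and 2.1e-07). Another 3 of the 16 genes of that list were higher, against 7.88% of all genes tested. This count was 1 without J17B and 0 without J17B and J20B.

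Of 15 myeloid transcription factors 12 were lower (median -1.02). Spi1, which encodes PU.1, fell from 32.6, 24.9, 37.6, 36.9 and 33.6 to 12.46, 10.3, 10.2, 11.4 and 9.75 TPM (log2 difference -1.52 ± 0.13, adjusted p = 2.7e-09). Its partner Irf8 fell from between 25.8 and 37.3 to between 7.43 and 12.6 TPM (adjusted p = 1.7e-09) and Cebpa by 1.02 on the log2 scale. Mef2c, which neurons express strongly, had 147 to 192 and 166 to 197 TPM and no call (adjusted p = 0.28). Of 11 genes of arginase, nitric oxide and polyamine metabolism, Arg1 among them, 3 were lower. Arg2, the mitochondrial arginase, had 6.05 to 8.65 and 6.02 to 8.80 TPM (adjusted p = 0.95), Nos2 had 0.301 to 0.841 and 0.764 to 1.25 TPM (adjusted p = 0.071) and Odc1 110.0 to 127 and 103 to 117 TPM (adjusted p = 0.39). Sat1, which acetylates polyamines, fell by 0.56 (adjusted p = 1.8e-05).

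Most lysosomal genes were lower. Of 26 genes 23 were lower and 1 was higher (median -0.73). Ctsb, a cysteine protease, fell from between 1023 and 1472 to between 679.8 and 813 TPM (log2 difference -0.81 ± 0.08, adjusted p = 6.5e-08), and Grn, progranulin, from between 352 and 539 to between 168 and 225 TPM (adjusted p = 4.3e-09). Ctsf, a cathepsin of neurons, did not separate the groups (82.7 to 89.9 and 82.5 to 88.8 TPM, adjusted p = 0.67). The higher member was Ctsk, a collagen-degrading cathepsin of fibroblasts and osteoclasts, with 11.7, 6.47, 17.4, 15.9 and 6.78 TPM in vehicle and 32.7, 20.1, 16.2, 14.2 and 16.4 TPM in treated mice (adjusted p = 0.044). Its call was lost without J17B and J20B (adjusted p = 0.4), without any of 7 single mice, 4 of them treated (at most 0.13), and under several other settings such as median-ratio rescaling (at most 0.084).

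Of 16 genes of apolipoproteins and lipid efflux 10 were lower and 1 was higher. Apoc2, an apolipoprotein that activates lipoprotein lipase, fell from 37.8, 27.5, 42.0, 38.0 and 31.2 to 4.71, 5.67, 9.80, 4.33 and 5.64 TPM (log2 difference -2.40 ± 0.15, adjusted p = 1e-10). Its neighbour Apoc1 fell by 1.94, the cholesterol exporter Abca1 by 0.95 and the scavenger receptor Cd36 by 1.71 (adjusted p = 1.6e-07, 1.3e-09 and 3.2e-06). The apolipoproteins of glia, Apod and Clu, gave no call (log2 differences -0.20 and 0.02; adjusted p = 0.14 and 0.82). Of 18 genes of cholesterol synthesis and its control 14 were higher, with a median of 0.24 on the log2 scale, and the count ran from 7 to 15 as each mouse was left out. Fdft1, squalene synthase, rose from 22.4, 23.8, 21.5, 21.4 and 22.01 to 26.5, 27.4, 28.3, 26.2 and 28.3 TPM (adjusted p = 2.3e-05). Insig1, a sterol-regulated retention protein, rose from between 50.8 and 61.5 to between 65.4 and 79.9 TPM (adjusted p = 2.9e-05). These increases were small next to the decreases, and sham mice were higher still (34.5 to 35.2 TPM for Fdft1).

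Red cell messages were lower in all 5 tested genes (median -1.77), and all 5 were also lower than in sham mice. Hbb-bs, a beta globin, had 811, 556, 1159, 1617 and 1469 TPM in vehicle, 245, 290.4, 271, 317 and 324 TPM in treated and 775, 756, 1198 and 1164 TPM in sham mice (adjusted p = 4.6e-07 against vehicle and 1.5e-06 against sham). Alas2, the erythroid enzyme of heme synthesis, fell from between 2.94 and 11.3 to between 1.32 and 2.90 TPM (adjusted p = 0.00041). Hba-a1 and Hba-a2, and likewise Hbb-bs and Hbb-bt, are near copies whose reads the counting could have divided between them. The mean of Hbb-bs was 287 TPM with PLX3397 alone and 1037 TPM with Anakinra alone. Of 16 genes of heme and iron 6 were lower, or 2 without J18B. Ftl1, ferritin light chain, fell from between 3266 and 5638 to between 2214 and 2986 TPM (adjusted p = 1.7e-05), while Fth1, the heavy chain, had 3569.8 ± 112 and 3442 ± 295 TPM (adjusted p = 0.56). Hmox1, which degrades heme, had 366, 166, 376, 505 and 239.9 TPM in vehicle and 269, 211, 151, 235 and 158 TPM in treated mice (adjusted p = 0.088, but 0.003 without J17B and J20B).

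Proliferation genes were lower too. Of 28 genes 20 were lower (median -0.42), although the count ran from 11 to 26 as each mouse was left out. Treated values lay wholly below vehicle in 3 of the 28, against 6.62% of all genes tested. Mki67 fell from 10.5, 7.001, 11.8, 12.96 and 9.86 to 7.14, 6.92, 5.07, 5.29 and 5.73 TPM (log2 difference -0.68 ± 0.13, adjusted p = 0.00034). Aurkb, a mitotic kinase, fell from between 4.72 and 6.82 to between 2.34 and 3.82 TPM (adjusted p = 7.1e-05), and Pbk, another, was a DEG (-0.93, adjusted p = 0.00011).

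The genes higher in treated mice were led by H19 (chr7:142575530-142578146), an imprinted long non-coding RNA of fetal tissue. It stood at 29.96, 4.61, 60.2, 60.4 and 6.14 TPM in vehicle and 224, 125, 150.2, 109 and 96.8 TPM in treated mice, a ratio of means of 4.37 (log2 difference 2.66 ± 0.50, adjusted p = 0.00041), against 0.237 to 0.625 TPM in sham mice. The groups did not overlap, as the naming rule required, but the vehicle mice J17B and J20B were far below the other 3. Igf2, its imprinted neighbour, rose from between 56.0 and 77.0 to between 62.0 and 104 TPM with overlap (adjusted p = 0.02, 0.14 without J17B and J20B, and at most 0.064 without J20B, J03 or J09 alone). Of 13 imprinted growth genes 3 were higher, against 7.88% of all genes tested, a count that ran from 2 to 4 with single mice left out. Without J17B and J20B 2 of them were higher and 2 were lower.

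The other higher DEGs were mostly structural proteins of connective tissue. Col1a1 (chr11:94936224-94953042), the main chain of type I collagen, had 169, 15.1, 206, 196 and 23.4 TPM in vehicle and 343, 247, 341, 218 and 207 TPM in treated mice (log2 difference 1.79 ± 0.51, adjusted p = 0.017). J17B and J20B were far below the other 3 vehicle mice there, and leaving out J20B alone ended the call (adjusted p = 0.066), as did a model of the compared groups alone (0.089). Postn, periostin, a matrix protein of scars, had 14.2, 4.30, 19.8, 19.6 and 4.19 TPM in vehicle and 64.8, 33.9, 39.0, 28.3 and 25.6 TPM in treated mice (log2 difference 1.73 ± 0.35, adjusted p = 0.0011). Lrrc17, a secreted leucine-rich protein, had 5.39, 0.0616, 4.08, 6.54 and 0.176 TPM in vehicle and 12.3, 8.75, 10.3, 8.49 and 8.35 TPM in treated mice (adjusted p = 0.0054, and 0.084 without J17B and J20B).

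The same pattern of mice ran through the list. J17B and J20B were both below the other 3 vehicle mice in 15 of the 17 higher DEGs. Of 17 collagens 11 were higher (median 0.77) and of 24 genes of fibroblast scar matrix 16 (median 0.79), and none was lower. Without J17B and J20B the collagens had 3 higher and 2 lower genes and the scar matrix 5 higher ones, and without J20B alone 5 and 10 were higher. The score of a list, the mean of log2(TPM + 1) over its genes relative to the 10 mice, was 0.01, -1.36, 0.22, 0.19 and -1.10 for the collagens in vehicle mice and 0.83, 0.36, 0.42, 0.27 and 0.17 in treated mice. For scar matrix it was -0.11, -1.25, 0.16, 0.13 and -1.03 in vehicle and 0.79, 0.54, 0.40, 0.24 and 0.14 in treated mice. In both lists J17B and J20B were the vehicle mice closest to the sham mice (-1.72 to -1.60 for scar matrix), and what set them apart was not tested.

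**Figure D4:**
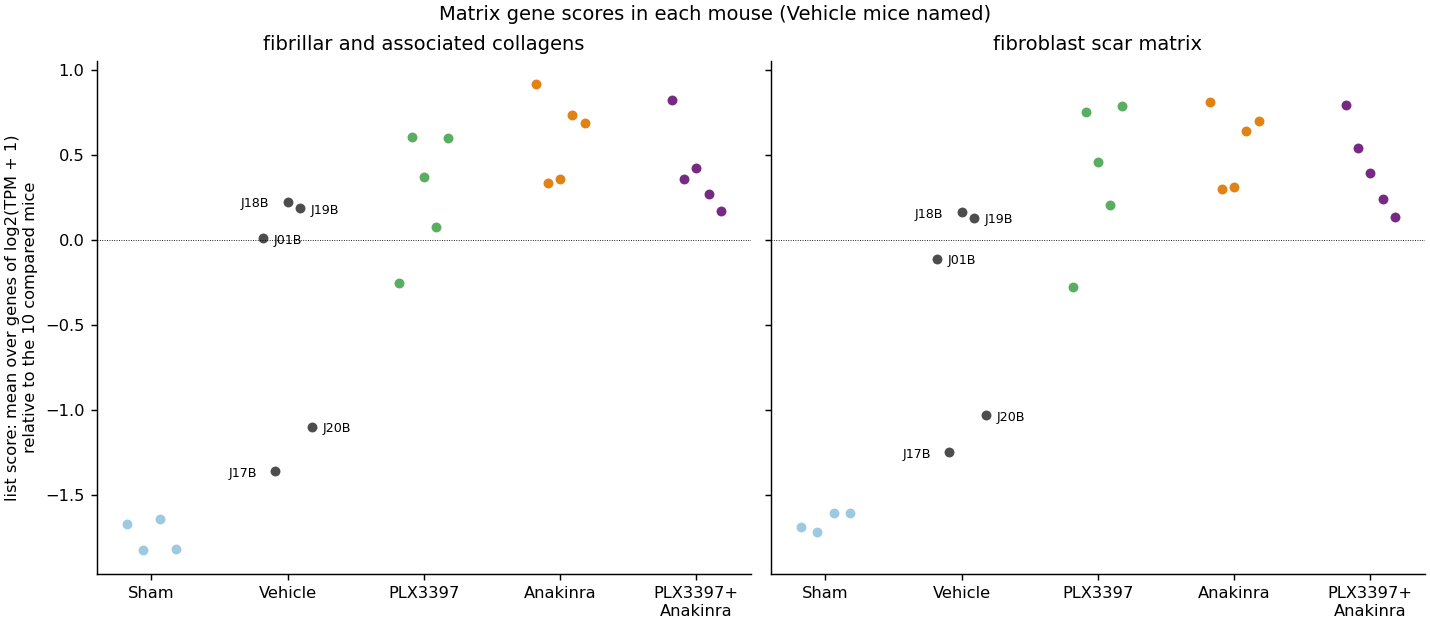
Score of the 17 collagens (left) and of the 24 scar matrix genes (right) in each mouse of the 5 groups, on a log2 scale centred on the 10 compared mice. Vehicle mice are named: J17B and J20B lie at -1.36 and -1.10 in collagens, while J01B, J18B and J19B lie between 0.01 and 0.22, next to the lowest PLX3397+Anakinra mice.

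Without these 2 mice, 9 of the 17 higher DEGs kept an adjusted p below 0.05, namely Aspn, Col12a1, Crabp1, Gm5741, H19, Itgbl1, Mfap4, Mgp and Postn. H19 then differed by 1.48 on the log2 scale (adjusted p = 0.0026), Postn by 0.99 (adjusted p = 0.019) and Mgp, a calcification inhibitor of vessels and cartilage, by 0.66 (adjusted p = 0.025). The fibrillar collagens lost their calls: Col1a1 differed by 0.48 (adjusted p = 0.24), Col1a2 by 0.43 (adjusted p = 0.28) and Col3a1 by 0.44 (adjusted p = 0.22). Over the 17 genes the log2 difference then ran from 0.39 to 1.48 with a median of 0.67, and the ratio of means exceeded 2 in 5. Gm5741, named here after its values were seen, had 2.52, 3.30, 3.08, 3.31 and 6.80 and 15.4, 2.73, 8.38, 8.75 and 12.2 TPM, with J20B the highest vehicle mouse. Its call was lost when J03 or J17 was left out (highest adjusted p = 0.055).

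Crabp1, the cellular binding protein of retinoic acid, had the smallest adjusted p of the higher DEGs. Vehicle mice had 11.2, 9.28, 8.96, 11.6 and 6.41 TPM and treated mice 26.0, 33.6, 21.1, 18.2 and 32.4 TPM (log2 difference 1.37 ± 0.21, adjusted p = 2.7e-05), and without J17B and J20B the difference was 1.21 (adjusted p = 0.00065). Epyc, a small proteoglycan, rose from 1.12, 0.942, 1.98, 2.80 and 1.35 to 6.02, 6.62, 3.91, 4.16 and 4.41 TPM (adjusted p = 0.00011) at too low a level to be a DEG. Dhrs3, which turns retinal back to retinol, fell from between 25.6 and 38.7 to between 15.9 and 21.6 TPM (adjusted p = 8.4e-07). Foxc2, a transcription factor of meningeal mesenchyme, rose from between 1.54 and 2.70 to between 3.26 and 4.81 TPM (adjusted p = 0.00035), and Actg2, an actin of smooth muscle, rose by 1.26 (adjusted p = 0.034), a call lost without J17B and J20B (adjusted p = 0.39) and without any of 6 single mice, 3 of them treated (at most 0.11).

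Vascular matrix was called higher about as often as all genes tested (7.88%). Of 14 genes of vascular basement membrane 1 was higher. Col4a1 had 73.3, 27.5, 66.9, 65.5 and 35.5 TPM in vehicle and 65.5, 59.3, 74.0, 58.1 and 52.0 TPM in treated mice (adjusted p = 0.35). Fn1, fibronectin, had 51.5 to 142 and 92.1 to 143 TPM (adjusted p = 0.48), and Sparc, a collagen-binding protein of many cells, 607 to 878 and 666 to 841 TPM (adjusted p = 0.81). J17B and J20B were the lowest vehicle mice in all 3. Of 19 metalloproteinases and inhibitors 2 were lower and 2 were higher, near the shares over all genes tested (9.60% and 7.88%). A lower one was Adam8 of leukocytes (-1.20, adjusted p = 8e-06). A higher one was Mmp3 of fibroblasts (0.96, adjusted p = 0.038), whose call was lost without J17B and J20B (adjusted p = 0.54) and without any of 6 single mice, 4 of them treated (at most 0.13).

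Genes of synapses were higher by small amounts. Of 22 genes of the synaptic vesicle and its release 14 were higher, none was lower, and the median was 0.23 on the log2 scale. The count ran from 10 to 18 when mice were left out singly. Stx1a, a syntaxin of the release machinery, rose from 153, 168, 153, 149.6 and 155 to 192, 218, 197, 204 and 195 TPM (log2 difference 0.37 ± 0.05, adjusted p = 2.5e-05). Syp, synaptophysin, rose from between 972 and 1146 to between 1218 and 1328 TPM (adjusted p = 0.00048), and Slc17a7, the vesicular glutamate transporter of cortex, from between 641 and 719 to between 813 and 896 TPM (adjusted p = 0.0037). Sham mice were higher in each, with 263 to 303 TPM for Stx1a and 1067 to 1252 TPM for Slc17a7.

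Receptors and channels were higher in smaller numbers. Of 23 glutamate and GABA-A receptor genes 3 were higher, and of 26 voltage-gated channel genes 6, against 7.88% of all genes tested. These counts ran from 2 to 10 and from 3 to 11 when mice were left out singly (lowest without J18B). Gabrd, a subunit of extrasynaptic GABA-A receptors, rose by 0.42 (adjusted p = 0.0016) and Grin1, the obligatory NMDA receptor subunit, by 0.31 (adjusted p = 0.00071). Of 15 genes of cortical layers 6 were higher, among them Tbr1 (0.36, adjusted p = 0.0025) and Fezf2 (0.30). Of 12 striatal genes 1 was higher and 1 was lower, near the shares over all genes tested (7.88% and 9.60%). Without J18B none of them was higher. Drd1, the dopamine receptor of striatal neurons, had 39.9 to 62.1 and 49.4 to 64.4 TPM (adjusted p = 0.41). The smallest adjusted p value among higher genes was that of Rpusd1, a member of the pseudouridine synthase family, which rose from between 55.0 and 65.0 to between 74.3 and 85.6 TPM (adjusted p = 2e-06). Next came Mical2, an actin-oxidising enzyme, which rose from 79.3, 82.2, 74.8, 79.9 and 76.5 to 92.5, 95.3, 102, 92.9 and 98.9 TPM (adjusted p = 4.2e-06). The largest increase in TPM was that of Bc1, a non-coding RNA of dendrites, from 3044, 2676, 3123, 3254 and 4037 to 5673, 4186, 5247, 3871 and 5614 TPM with overlap (adjusted p = 0.0021). Bc1 is transcribed by RNA polymerase III, and its level in a polyA library depends on how such transcripts are captured.

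Injured neurons gave values in both directions. Of 16 genes 2 were lower and 4 were higher (median 0.06), against 9.60% and 7.88% of all genes tested. These counts ran from 1 to 3 and from 2 to 5 with single mice left out. Atf3, the transcription factor of axotomised neurons and stressed cells, fell from 33.1, 23.4, 31.1, 34.7 and 34.7 to 20.4, 21, 20.1, 13.7 and 12.6 TPM (log2 difference -0.82 ± 0.17, adjusted p = 0.00097). Sprr1a, another gene of axon injury, fell by 0.83 (adjusted p = 0.026). Gal, the neuropeptide galanin, which was counted in another list, fell from between 8.18 and 16.9 to between 4.92 and 7.84 TPM (adjusted p = 0.027). Both calls were lost when single mice were left out. Nefl, the light neurofilament, had the largest increase of the list and rose from between 308 and 377 to between 389.7 and 447 TPM (adjusted p = 0.0011). Of the immediate early genes 2 of 15 were higher, against 7.88% of all genes tested, and none was without J18B. Egr1 had 82.97 to 137 and 121 to 182 TPM (adjusted p = 0.015, at most 0.063 with 1 mouse left out), and Fos had 16.8 to 23.3 and 18.2 to 21.6 TPM (adjusted p = 0.68).

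Of 18 reactive astrocyte genes 6 were lower. Lcn2, a siderophore-binding protein, fell from 40.0, 40.0, 81.3, 60.99 and 90.8 to 16.7, 17.4, 54.8, 12.2 and 16.0 TPM with overlap through J09 (adjusted p = 0.01, but 0.086 with a pseudocount of 0.1), and Serpina3n fell from between 378 and 622 to between 325 and 432 TPM (adjusted p = 0.0042). The filament genes Gfap and Vim gave no call, with 1593, 1589, 2437, 2022 and 2085 TPM in vehicle and 1955, 1664, 1655, 1830.1 and 1598 TPM in treated mice for Gfap (adjusted p = 0.34; 0.23 for Vim) against 106 to 122 TPM in sham mice. Aqp4, the water channel of astrocyte endfeet, had 192 to 254 and 144 to 215 TPM (adjusted p = 0.4). Of 16 myelin genes 1 was lower, against 9.60% of all genes tested, and Mbp had 1672 to 1813 and 1716 to 1993 TPM (adjusted p = 0.17). Oligodendrocyte progenitors had 7 lower genes of 14, among them Pdgfra, their growth factor receptor, which fell from 33.2, 26.8, 29.2, 29.7 and 27.5 to 24.9, 22.3, 22.3, 24.1 and 23.0 TPM (adjusted p = 0.00061). Endothelium had 1 lower gene of 19, against 9.60% of all genes tested. It was Icam1 (-0.62, adjusted p = 0.0015), which leukocytes express too. Cldn5, the tight junction protein, had 77.9 to 108 and 70.8 to 93.3 TPM (adjusted p = 0.16, but 0.038 without J17B and J20B). No gene of the choroid plexus list (10) or the heat shock list (12) was called.

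Most of the genes lowered by treatment were still above sham. At an adjusted p below 0.05, 6702 genes (38.8%) differed between PLX3397+Anakinra and sham mice and 9378 (54.3%) between vehicle and sham mice, 2 comparisons that share the sham mice. Of the 1658 genes lower than in vehicle, 1132 were still above sham, 475 gave no call against sham and 51 were below it. Of the 268 lower DEGs, 232 were still above sham and 11 were below, namely Alas2, Hba-a1, Hba-a2, Hbb-bs and Hbb-bt of red cells, Crybb1, P2ry12, Selplg and Siglech of microglia, and Cbr2 and Mrc1 of border macrophages. P2ry12 stood at 25.9, 29.3, 29.5 and 29.1 TPM in sham mice, above all treated mice (adjusted p = 0.00024). Mrc1 had 1.87, 2.07, 3.01 and 2.55 TPM in sham mice (adjusted p = 6.4e-06). Of the 1360 genes higher than in vehicle, 798 were still below sham, and of the 17 higher DEGs 16 were above it.

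List scores were set beside those of the single drugs. Mean scores in vehicle, PLX3397, Anakinra and PLX3397+Anakinra mice were 0.60, -0.57, 0.61 and -0.60 for homeostatic microglia. They were 0.78, -0.25, 0.67 and -0.78 for border macrophages and 0.60, -0.17, 0.43 and -0.60 for activated phagocytes. For interferon-stimulated genes they were 0.32, 0.05, 0.67 and -0.32. The scores are descriptions, and the comparisons with vehicle share the same 5 vehicle mice. For collagens the means were -0.41, 0.28, 0.61 and 0.41, so the vehicle group was the lowest injured group there.

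**Figure D5:**
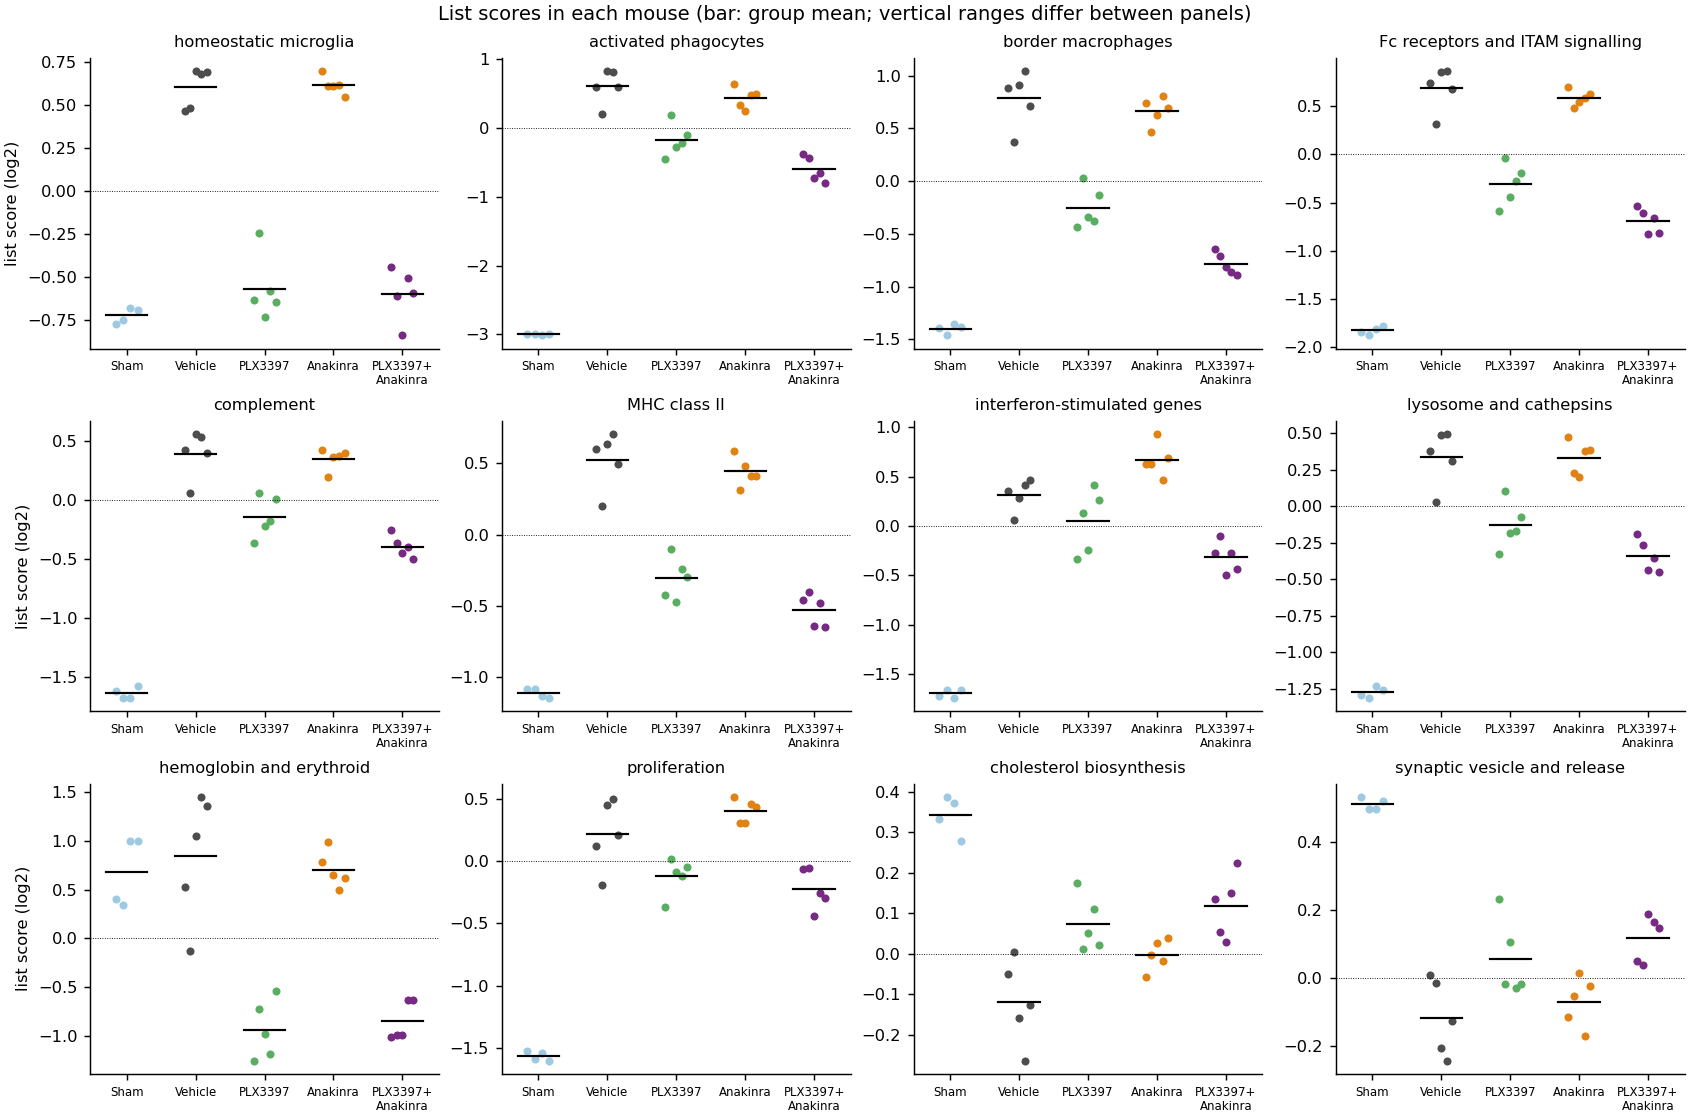
Scores of 12 lists in each mouse (points) of the 5 groups, with the group mean as a bar, on a log2 scale centred on the 10 compared mice. Homeostatic microglia and hemoglobin have nearly equal means in the PLX3397 and the PLX3397+Anakinra mice (means -0.57 and -0.60, -0.94 and -0.85), while border macrophages lie lower in the latter (-0.25 and -0.78).

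The combination differed directly from PLX3397 alone in 26 genes (0.151%) at an adjusted p below 0.05, 25 lower and 1 higher. Pf4 had 20.1, 37.3, 27.1, 27.1 and 41.3 TPM with PLX3397 alone, and the combination differed by -1.88 on the log2 scale (adjusted p = 5.7e-05). Arg1 had 9.61, 18.1, 14.6, 24.1 and 25.4 TPM with PLX3397 alone and 12.9, 10.1, 25.6, 17.7 and 16.5 TPM with Anakinra alone, each above the 5 mice of the combination (-1.89 against PLX3397, adjusted p = 0.00077). Wfdc17, F13a1, Apoc2, Lyz2 and Ms4a7 differed from PLX3397 alone by -1.36, -1.504, -1.19, -1.34 and -1.25 on the log2 scale (adjusted p = 2.2e-05, 5.7e-05, 0.0002, 0.00066 and 0.0053). Mmp8, Cybb, Ctss, Spp1, Gpnmb and Tlr8 were among the 25 as well, with differences from -1.04 (Spp1) to -0.58 (Tlr8). Csf1r (73.8 to 120.5 TPM with PLX3397 alone, adjusted p = 0.75), P2ry12 (adjusted p = 0.98) and Mrc1 (adjusted p = 0.8) gave no call against PLX3397 alone. The higher gene was Mical2, at 81.3 to 88.3 TPM with PLX3397 alone (adjusted p = 0.045). Against Anakinra alone 2206 genes (12.8%) differed, and Csf1r stood at 213 to 234 TPM there.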

How the data were processed

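Bulk polyA RNA-seq of the injured brain quadrant was analysed in 24 mice, of which 10 entered the comparison of PLX3397+Anakinra with vehicle. Per the methods of the study, the authors mapped and quantified the reads in CLC Genomics Workbench 21.0.5 on the mouse genome (GRCm38 per the submitters' processing notes), and the deposited values are TPM per gene symbol, with no read counts, which leaves the depth of each library unknown and allows no interval for counting error. TPM of each library adds to the same total, so a gene's value also depends on all others.

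Groups were read from the labels, and each library is a separate mouse. The p-values measure the spread between mice of a group, pooled over all 24 mice. They can understate the error where vehicle mice vary more, as in the collagens (SD of the score 0.76 in vehicle and 0.095 in sham mice). No column was left without a sample. The columns of test values in the filtered deposited table hold the authors' own comparisons and were not used. Genes whose mean was at least 0.5 TPM over the 24 libraries were fitted as log2(TPM + 1) in limma 3.58.1 (R 4.3.3) with a mean for each group, eBayes with trend, two-sided tests and Benjamini-Hochberg adjustment over all genes tested at 0.05. The procedure was tested on simulated data. DEGs used limma's unadjusted p with the study's limits of 2-fold and 4 TPM. Errors of log2 differences are SE, and other errors are SD with n = 5.

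The members and gene lists were chosen with earlier results of these data known, so list counts and medians carry no test. A list score is the mean over the list's tested genes of log2(TPM + 1) minus each gene's mean over the 10 mice. Genes were named by rule: among called genes without overlap between the groups and with at least 4 TPM in the higher group, the 12 lower and 12 higher with the largest log2 difference, then the 8 with the smallest adjusted p and the 8 with the largest difference in TPM in each direction, and members of the lists. Gm5741 lies outside the rule. Gene positions and promoters are from RefSeq (GRCm38.p6), where 16 of the 24 genes with the largest differences had a window. Alternatives were another pseudocount, other filters, median-ratio rescaling, a model of the compared groups alone, eBayes without trend or robust, the rounded table, the study's own test for DEGs, and each mouse left out. Results of a few genes are not reported here.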

Additional observations from a re-analysis of the deposited data

Results flagged for a closer look

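Among 216 groups of values examined (52 genes and 56 list scores in each of the 2 compared groups), 7 held a mouse far from the others of its group by Dixon's criterion at 95%, which chance meets in about 1 of 20 groups.

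For 3 genes, a treated mouse stood apart. Apoc2 was 9.80 TPM in J09 and 4.33 to 5.67 TPM in the other 4 PLX3397+Anakinra mice. Mfap4, a microfibril protein, was 51.4 TPM in J03 and 21.4 to 28.5 TPM in the others, and Aspn, a small proteoglycan, was 14.2 TPM in J03 and 5.93 to 8.33 TPM in the others.

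Among list scores, NADPH oxidase was 0.28 in the vehicle mouse J17B and 0.65 to 0.75 in the other vehicle mice. Myeloid transcription factors were at -0.59 in the treated mouse J17 and -0.44 to -0.39 in the others. The choroid plexus score was -0.23 in the vehicle mouse J01B and -0.01 to 0.06 in the others, and the score of glucocorticoid-induced genes was 0.29 in the treated mouse J09 and -0.12 to -0.06 in the others.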

How the results depend on the processing

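No paired analysis was possible because the compared groups share at most 1 animal number. When 1 mouse at a time was removed, called genes ran from 2170 to 3446, the lower ones from 1310 to 1846 and the higher ones from 860 to 1600. The count of higher genes was 860 without the vehicle mouse J18B and 888 without J19B. DEGs ran from 275 to 304, lower DEGs from 253 to 296 and higher DEGs from 8 to 25, with 8 without J17B, 9 without J20B and 9 without the treated mouse J03. Leaving out J17B and J20B together, which was chosen after seeing the data, left 312 lower and 5 higher DEGs. With a difference limit of 1 TPM in place of 4 there were 450 DEGs, 410 lower and 40 higher. Under median-ratio rescaling 1752 genes were lower and 1207 higher, and in a model of the compared groups alone 1337 and 907. In none of the alternatives run did a called gene among the 247 named change direction. Of 134 named genes that were lower, 124 kept their call with every mouse left out in turn, and of 64 that were higher, 46 did. Some of them were named for large differences in these same mice, so these counts do not stand for all called genes. Of the 3018 genes called with all mice, 2118 were called in the same direction without J18B. The causes were not tested. Depth limits are unknown, since TPM keeps no counts.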
